A study of Homo sapiens with 10 samples.

Results

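Mitochondrial ribosomal protein genes were followed in MRC5 cells, fibroblasts of human fetal lung, given medium conditioned by A549 cells, which come from a lung adenocarcinoma and resemble alveolar epithelium. Members were the rows of the gene count table whose Ensembl identifier belonged to a protein-coding gene with a symbol of MRPL or MRPS followed by a digit. This gave 71 of the 14054 genes in the table, 46 of the large subunit (MRPL) and 25 of the small subunit (MRPS) by symbol, on 21 chromosomes. The 3 pseudogene rows and 1 antisense row that share these names were left out. A further 7 protein-coding genes with such symbols (MRPL41, MRPL45, MRPL50, MRPS12, MRPS18B, MRPS21 and MRPS34) had no row in the count table.

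There were 5 libraries of MRC5 cells given medium from stretched A549 cells (stretch medium, libraries 2, 4, 6, 8 and 10), and the other 5 libraries were of MRC5 cells given medium from non-stretched A549 cells (static medium, libraries 1, 3, 5, 7 and 9). Both groups share the cell line, the A549 source of the medium and the assay. The sample descriptions state 24 hours of exposure and the series design 6 hours. All libraries come from 1 fibroblast line, and the labels do not call those of a group separate cultures. The p-values thus rest on the spread among these libraries alone, and that spread may be technical.

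The mitochondrial ribosome makes the few proteins that the mitochondrial genome encodes, all of them subunits of the respiratory chain and ATP synthase. Its RNAs come from the mitochondrial genome, while its proteins are encoded in the nucleus, made in the cytosol and imported. Some of these proteins have counterparts in bacterial ribosomes, and others were added in mitochondria. Fibroblasts depend on this machinery for respiration, and inherited defects in several of the genes cause combined respiratory chain deficiencies.

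Libraries held 4231653 to 7724512 counts with stretch medium and 4610480 to 8455073 with static medium. Levels are given as CPM, a gene's count over the size of its library, with sizes scaled by the trimmed mean of M-values, and a floor of 3 counts was 0.354 to 0.679 CPM. The assay amplifies short targets by PCR, so CPM of different genes also reflect their targets, and levels are compared within a gene only. Of the 15 lung fibroblast markers listed, 15 were in the table, with a summed level of 14884 to 19375 CPM with stretch and 16773 to 18644 CPM with static medium. Of 14 markers of A549 and lung epithelium, 9 were in the table, with sums of 50.01 to 58.3 CPM with stretch and 44.5 to 55.4 CPM with static medium. The epithelial adhesion gene CDH1 was at no more than 0.522 CPM in any library. KRT18, a keratin, was at 14.6 ± 2.35 CPM with stretch and 11.2 ± 2.29 CPM with static medium (edgeR, adjusted p = 0.276). Of the 14 fibroblast markers tested, 9 had fitted changes above 0 and 5 below, among them FN1 (fibronectin, 0.30 ± 0.12) and COL1A1 (a collagen chain, 0.22 ± 0.0982), the pair with the smallest p, and VIM (vimentin, -0.38 ± 0.20), with adjusted p of 0.252, 0.273 and 0.344 in edgeR. VIM stood at 1580 CPM in stretch 2, against 4057 to 5073 CPM in the other 9 libraries. Markers of endothelium summed to 5.37 to 9.04 CPM with stretch and 2.22 to 9.38 CPM with static medium. Of the leukocyte markers, LYZ was at no more than 2.46 CPM in any library, while CD68, which fibroblasts also make, was at 202 ± 21.3 CPM with stretch and 199 ± 6.16 CPM with static medium. The part of other cells in the results was not tested. In such bulk samples fewer cells of a type and less RNA per cell cannot be told apart.

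No mitochondrial ribosomal protein gene differed between the media past the threshold of edgeR's test, and most fitted changes were small, as they were over all genes. Of the 71 members, 68 passed the filter on low counts (43 large and 25 small subunit genes), and 0 of these passed an adjusted p of 0.05 in edgeR's quasi-likelihood test, where 0% of the 10968 genes tested did. The smallest adjusted p of a member was 0.130, for MRPS35. At an unadjusted p under 0.05, 7 members (10.3%) were lower with stretch medium, where 8.37% of all genes were, and 2 members (2.94%) were higher, where 8.08% of all genes were. The 9 members make up 13.2% of those tested, against 16.4% for all genes. The stretch and static libraries did not overlap for 0 members lower and 0 higher, against 1.98% and 1.74% of all genes. DESeq2 called 2 members lower, MRPS35 (adjusted p = 0.0350) and MRPL52 (adjusted p = 0.0496), and 0 higher, where it called 1.52% and 1.34% of the genes to which it gave an adjusted p. Among the members tested, MRPL35 (DESeq2, unadjusted p = 0.00258) and MRPL57 were given no adjusted p by DESeq2 and so could not be called. Limma-voom called 0 members. The 2 members higher became 1 when any of static 1, 3 and 7 or stretch 6, 8 and 10 was left out. Without stretch 4, edgeR called 39 genes, of which 1 was a member (MRPS35), and without stretch 6 and stretch 10 it called 2 genes and 1 gene, with 0 members.

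Fitted log2 fold changes, stretch minus static medium with ± for the SE where a single change is given, ran for the 68 members from -1.01 to 0.38 and had a median of -0.073, where the median of all genes was 0.00035. Values below 0 were fitted for 42 of the 68 members (61.8%) and for 49.9% of all genes. For 51 of the 68 members the fitted change was smaller than 0.25 in either direction, and so it was for 7459 of the 10968 genes tested. The 95% interval spanned 0 for 59 members, which are those without an unadjusted p under 0.05, and for 9164 of all genes. Its median half-width on the log2 scale was 0.28 for members and 0.33 for all genes.

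**Figure D1:**
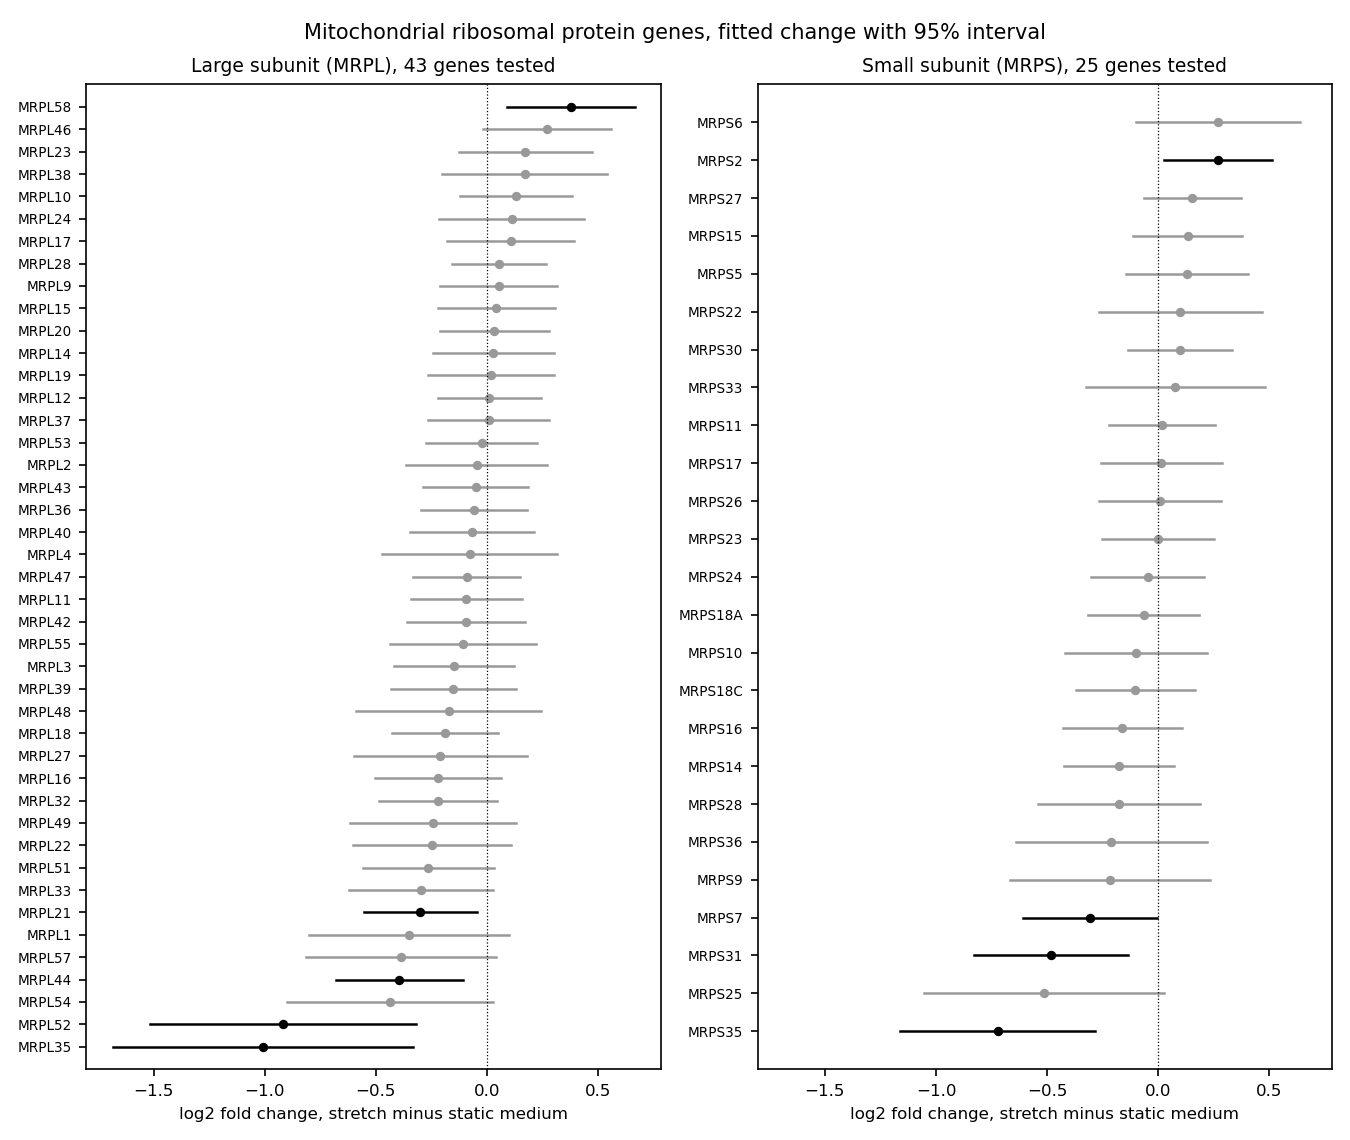
Fitted log2 fold change of each of the 68 members tested, stretch minus static medium, with its 95% interval, for 43 large subunit genes (left) and 25 small subunit genes (right). Black marks the 9 members with an unadjusted p under 0.05, of which 7 lie left of 0, and the intervals of the other 59 cross 0.

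The subunits were compared next. The 43 large subunit genes that were tested had a median fitted change of -0.091 on the log2 scale, with 28 of 43 below 0, and the 25 small subunit genes a median of -0.048, with 14 of 25 below 0. The middle 50% of values, by quartiles, ran from -0.23 to 0.031 for large, from -0.18 to 0.10 for small subunit genes and from -0.17 to 0.16 for all genes. At an unadjusted p under 0.05, 4 large subunit genes were lower and 1 higher, and 3 small subunit genes were lower and 1 higher. The shares of all genes were 8.37% lower and 8.08% higher. Leaving out 1 library at a time kept the large subunit median between -0.11 and -0.074, while that of the small subunit ran from -0.075 to 0.0052, above 0 without static 9.

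Averaged over its genes, with each gene centred on its mean over the 10 libraries, the level of the large subunit was -0.13, -0.068, -0.060, 0.011 and -0.054 log2 CPM in stretch libraries 2, 4, 6, 8 and 10, against -0.0061, 0.037, 0.059, 0.12 and 0.092 log2 CPM in static libraries 1, 3, 5, 7 and 9. The groups averaged -0.061 ± 0.0509 with stretch and 0.061 ± 0.0493 with static medium (SD, n = 5 each). Stretch 8 lay above static 1, and the other 4 stretch libraries lay below every static library. The small subunit was at -0.18, 0.023, -0.048, 0.040 and -0.023 in the stretch libraries, against 0.0019, -0.058, -0.017, 0.16 and 0.11 in the static libraries, in the same order. Its groups averaged -0.038 ± 0.0879 with stretch and 0.038 ± 0.0897 with static medium and overlapped widely, with stretch 2 the lowest and static 7 the highest of the 10. In sums of CPM, where genes of high CPM weigh most, the small subunit averaged 1927 ± 108 with stretch and 1905 ± 83.8 with static medium. The large subunit averaged 3245 ± 159 with stretch and 3314 ± 114 with static medium in such sums. The direction for the small subunit thus depended on the measure.

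Large minus small subunit, the balance between the subunits, was 0.050, -0.090, -0.012, -0.029 and -0.031 in the stretch libraries, against -0.0079, 0.094, 0.076, -0.035 and -0.014 in the static libraries. It averaged -0.023 ± 0.0502 with stretch and 0.023 ± 0.0584 with static medium, a difference of -0.045 on the log2 scale, which is within 1 SD of either group. The groups overlapped in this balance, with stretch 2 above 3 of the static libraries.

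**Figure D2:**
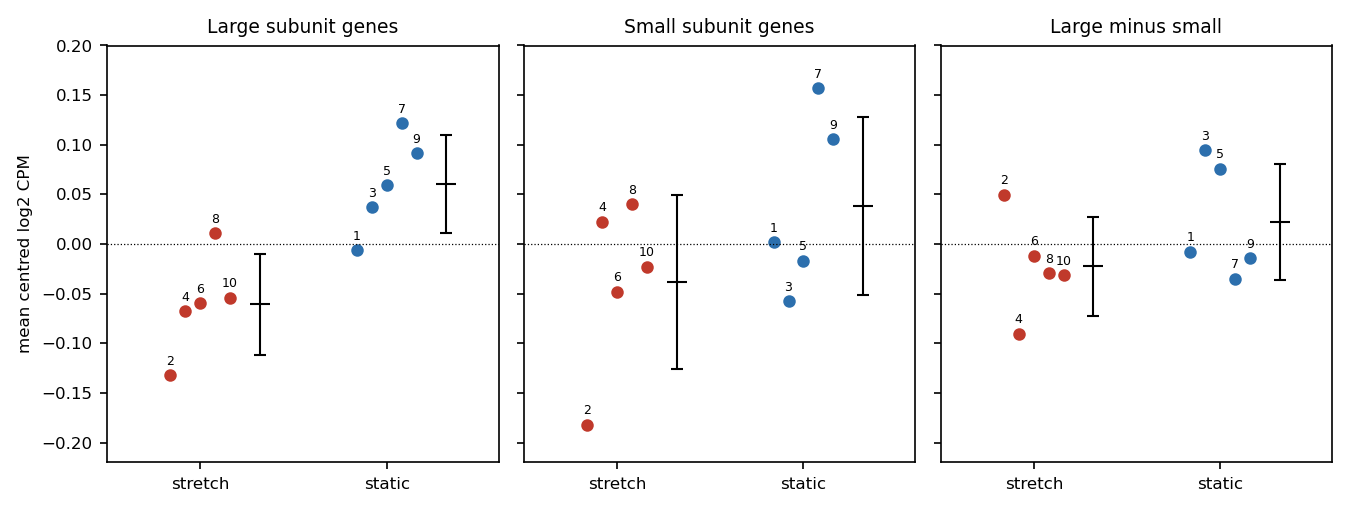
Mean centred log2 CPM of the large subunit genes (left), the small subunit genes (middle) and their difference (right) in each library, stretch medium left of static medium, with library numbers; bars are the mean and SD of 5 libraries. Stretch 8 lies above static 1 for the large subunit, and the groups overlap in the other panels too, with a difference of -0.045 between the group means in the right panel.

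**Figure D3:**
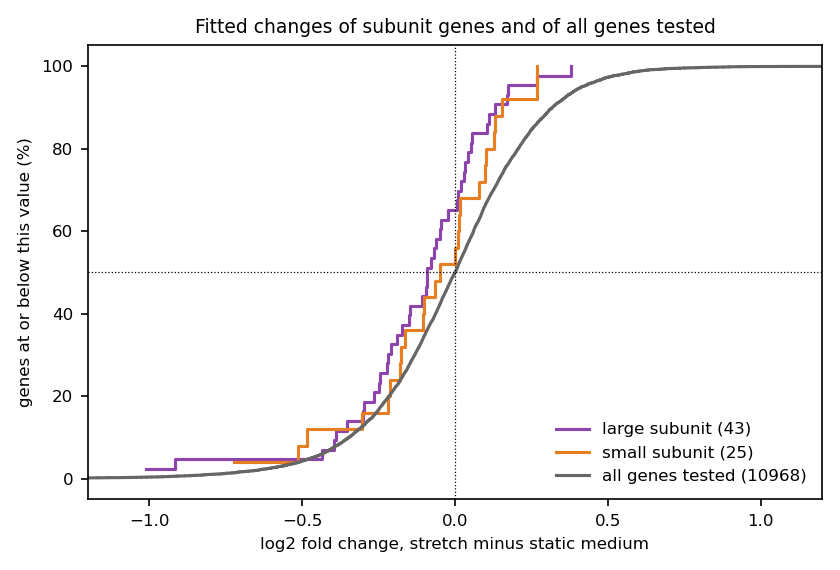
Cumulative share of genes (percent) at or below each log2 fold change, stretch minus static medium, for 43 large subunit genes, 25 small subunit genes and the 10968 genes tested. The curves of both subunits lie slightly left of all genes at the 50% line, at medians of -0.091 and -0.048 against 0.00035.

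Symbols do not follow the ribosome's structure throughout: the proteins of MRPS18A and MRPS30 sit in the large subunit, and that of MRPS36 belongs to the alpha-ketoglutarate dehydrogenase complex. Placed by structure, 45 large and 22 small subunit genes had medians of -0.079 and -0.025. MRPS18A had 52.3, 54.7, 49.0, 61.3 and 58.1 CPM with stretch medium in libraries 2, 4, 6, 8 and 10, against 64.8, 61.0, 48.4, 62.0 and 52.1 CPM with static medium in libraries 1, 3, 5, 7 and 9, with a log2 fold change of -0.066 ± 0.12. Its paralog MRPS18C, whose protein holds the place of the bacterial protein in the small subunit, had a log2 fold change of -0.10 ± 0.13. MRPS30 was at 0.10 ± 0.11 and MRPS36 at -0.21 ± 0.20. With 1 library left out, MRPS18A ran from -0.12 (static 5) to -0.024 (stretch 6), MRPS18C from -0.17 (static 7) to -0.00029 (static 9), MRPS30 from 0.049 (stretch 6) to 0.14 (stretch 8) and MRPS36 from -0.39 (stretch 8) to -0.10 (stretch 6). The groups overlapped for each of these 4 genes, and their adjusted p in edgeR ran from 0.631 to 0.819.

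By origin, 41 members with a bacterial counterpart had a median of -0.079, with 3 lower and 1 higher at an unadjusted p under 0.05. The 26 members classed as added in mitochondria had a median of -0.067, with 4 lower and 1 higher. Of all genes, 8.37% were lower and 8.08% higher. MRPS18A was counted among the 26, although its paralog MRPS18C holds the place of a bacterial protein, and MRPS36 was in neither class. Within the large subunit the medians were -0.079 for 27 genes with a counterpart and -0.081 for 18 without. In the small subunit they were -0.074 for 14 and 0.0043 for 8 genes.

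Promoter letters were compared apart from the counts. RefSeq windows on GRCh38.p14 were found for 63 of the 71 members, and the 250 bases before the first listed start were searched on both strands, as were those of 15843 protein-coding genes. The ETS core CCGGAAG, read by factors such as GABPA, stood in 21 of 63 member windows (33.3%) and 11.8% of all. The NRF1 core GCATGCGC stood in 5 of 63 member windows (7.94%) and 3.70% of all, and the YY1 core AAGATGGCG in 3 of 63 member windows (4.76%) and 0.751% of all. The GC box GGGCGG stood in 34 of 63 member windows (54.0%) and 56.0% of all, CCAAT in 15 of 63 member windows (23.8%) and 34.5% of all and TATAAA in 3 of 63 member windows (4.76%) and 9.23% of all. No motif searched contains another. A match is a description of letters and was not tied to any change between the media.

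The 100 bases before the RefSeq start follow for MRPS35, the member with the smallest p, and for the other members with an unadjusted p under 0.05 whose window held an ETS, NRF1 or YY1 core. Each is written 5′ to 3′ on the strand of its gene, with capitals for the ETS core, the YY1 core and the GC box on either strand. They lie at chr12:27710732-27710831 (plus strand), chr14:22829787-22829886 (plus strand), chr13:40771191-40771290 (minus strand) and chr17:75012570-75012669 (plus strand).
MRPS35: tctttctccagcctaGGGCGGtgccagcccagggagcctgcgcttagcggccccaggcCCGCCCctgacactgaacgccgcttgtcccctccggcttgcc
MRPL52: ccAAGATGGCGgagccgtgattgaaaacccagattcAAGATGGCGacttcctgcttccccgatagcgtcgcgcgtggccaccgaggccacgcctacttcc
MRPS31: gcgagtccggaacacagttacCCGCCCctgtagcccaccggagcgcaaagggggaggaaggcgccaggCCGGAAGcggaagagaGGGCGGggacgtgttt
MRPL58: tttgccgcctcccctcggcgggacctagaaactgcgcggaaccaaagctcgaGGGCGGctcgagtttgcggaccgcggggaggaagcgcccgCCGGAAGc
MRPL52 held 2 YY1 cores, beginning 98 and 64 bases before the start, and an NRF1 core further out at 175. MRPS31 and MRPL58 each held an ETS core close to the start, at 32 and 8 bases, and MRPL58 held another further out at 193, on the opposite strand. MRPS35 held GC boxes only, at 85 and 42 bases. The GENCODE starts of MRPS35 and MRPL52, at 27710773 and 22829879, lie before the ends of their printed stretches. Part of each stretch, with the MRPS35 GC box at 42 bases, thus lies within the gene as GENCODE places it.

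The large subunit members with the smallest p-values are described first, with p adjusted over all genes tested (Benjamini-Hochberg) and positions on GRCh38. MRPL52 (ENSG00000172590, chromosome 14, 22829879 to 22835037), a protein of the large subunit without a bacterial counterpart and with the pair of YY1 cores shown above, had 2.94, 11.2, 5.37, 7.50 and 6.43 CPM with stretch medium in libraries 2, 4, 6, 8 and 10, against 10.8, 11.1, 10.6, 20.9 and 9.74 CPM with static medium in libraries 1, 3, 5, 7 and 9. Stretch 4 lay among the static libraries, the other 4 stretch libraries lay below all of them, and static 7 stood above the rest. On the log2 scale the fitted difference was -0.92 ± 0.28 (edgeR, adjusted p = 0.145). MRPL35 (ENSG00000132313, chromosome 2, 86199355 to 86213794), the counterpart of a small bacterial large-subunit protein, had 1.36, 4.81, 2.89, 2.46 and 4.62 CPM with stretch medium, against 3.30, 5.66, 7.38, 10.1 and 5.52 CPM with static medium, in the same order of libraries. Stretch 4 and stretch 10 lay above static 1, and the other 3 stretch libraries lay below every static library. Its log2 fold change of -1.01 ± 0.32 was the lowest of all members (edgeR, adjusted p = 0.152), at low levels. In stretch 2 the level of 1.36 CPM was near the floor of 0.679 CPM of that library.

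MRPL44 (ENSG00000135900, chromosome 2, 223957404 to 223967714) encodes a protein with a ribonuclease III-like fold near the exit of the nascent chain, and its mutation causes infantile cardiomyopathy. It had 29.2, 38.7, 30.7, 35.3 and 42.6 CPM with stretch medium, against 43.7, 44.2, 54.4, 50.4 and 38.8 CPM with static medium. Stretch 10 lay above static 9, and the other 4 stretch libraries lay below every static library. The fitted log2 difference was -0.39 ± 0.14 (edgeR, adjusted p = 0.170). MRPL21 (ENSG00000197345, chromosome 11, 68891276 to 68903835), the counterpart of a bacterial large-subunit protein, had 36.4, 35.2, 42.5, 43.7 and 35.8 CPM with stretch medium, against 45.5, 42.8, 43.4, 55.7 and 51.6 CPM with static medium. Stretch 8 lay among the static libraries and the other 4 lay below them. EdgeR fitted a log2 fold change of -0.30 ± 0.12 (adjusted p = 0.238).

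MRPL58 (ENSG00000167862, chromosome 17, 75012670 to 75021261) encodes a peptidyl-tRNA hydrolase, also known as ICT1, that frees stalled mitochondrial ribosomes and is built into the large subunit. It was the member with the highest fitted change, at 58.8, 45.6, 73.7, 72.0 and 76.6 CPM with stretch medium, against 51.0, 49.8, 54.1, 49.6 and 47.4 CPM with static medium. In 4 stretch libraries it lay above every static library, and stretch 4 lay below all of them. On the log2 scale the fitted difference was 0.38 ± 0.14, and its 95% interval ran from 0.091 to 0.66 (edgeR, adjusted p = 0.190). Next highest was MRPL46, a protein added to the large subunit in mitochondria, at 148 ± 32.8 CPM with stretch and 123 ± 9.77 CPM with static medium (SD, n = 5 each). Its interval of -0.019 to 0.56 spanned 0, and without stretch 6 the fitted change was 0.17.

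Of the stalk, the arm of the large subunit that recruits translation factors, MRPL12 had 47.7, 56.8, 53.4, 51.6 and 45.6 CPM with stretch medium, against 48.8, 55.9, 48.6, 53.3 and 46.6 CPM with static medium, so the groups lay over each other. The fitted log2 difference was 0.011 ± 0.11, with a 95% interval of -0.22 to 0.24, and it was -0.0051 under upper quartile scaling. MRPL10, the base of the stalk, was at 0.13 ± 0.12 (0.062 without stretch 6 and 0.20 without static 9) and MRPL11, beside it, at -0.093 ± 0.12 (-0.059 without static 7). Their adjusted p in edgeR were 0.614 and 0.729.

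Of the small subunit, MRPS35 (ENSG00000061794, chromosome 12, 27710773 to 27756295), a protein added in mitochondria, had the smallest p of all members. It had 40.7, 93.7, 45.4, 52.1 and 55.1 CPM with stretch medium in libraries 2, 4, 6, 8 and 10, against 80.7, 65.6, 105, 127 and 95.8 CPM with static medium in libraries 1, 3, 5, 7 and 9. Stretch 4 lay inside the static range, and the other 4 stretch libraries lay below every static library. EdgeR fitted a log2 fold change of -0.72 ± 0.21, and its 95% interval ran from -1.16 to -0.28 (adjusted p = 0.130). Without stretch 4 it was -0.97, and its adjusted p was 0.0346.

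MRPS31 (ENSG00000102738, chromosome 13, 40729135 to 40771173), also added in mitochondria, had 21.0, 25.2, 23.7, 21.7 and 20.5 CPM with stretch medium, against 27.7, 23.8, 25.8, 36.8 and 42.9 CPM with static medium. Stretch 4 lay above static 3, and the other 4 stretch libraries lay below every static library. On the log2 scale the fitted difference was -0.48 ± 0.16 (edgeR, adjusted p = 0.169). Its close pseudogene copy MRPS31P5 is in the table at means of 7.23 CPM with stretch and 9.22 CPM with static medium, so reads may have been split between them and the level of MRPS31 is uncertain. MRPS7 (ENSG00000125445, chromosome 17, 75261674 to 75266373), which in bacteria starts assembly of the head of the small subunit, had 62.7, 83.3, 86.0, 85.7 and 68.7 CPM with stretch medium, against 85.1, 74.6, 91.9, 128 and 99.0 CPM with static medium. Only stretch 2 and stretch 10 lay below every static library. The fitted log2 difference was -0.31 ± 0.14 (edgeR, adjusted p = 0.297). Without static 7 it was -0.18, with an unadjusted p above 0.05. MRPS25, added in mitochondria, had 3.17, 8.08, 7.98, 5.94 and 7.23 CPM with stretch medium, against 9.23, 8.25, 11.5, 12.4 and 5.19 CPM with static medium, and its interval of -1.06 to 0.028 spanned 0.

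MRPS2 (ENSG00000122140, chromosome 9, 135499984 to 135504673), the counterpart of a bacterial protein between head and body of the small subunit, had 97.5, 95.1, 122, 121 and 115 CPM with stretch medium, against 84.2, 90.2, 92.9, 81.2 and 109.7 CPM with static medium. Stretch 6, 8 and 10 lay above every static library, and stretch 2 and 4 lay below static 9. EdgeR fitted a log2 fold change of 0.27 ± 0.12 (adjusted p = 0.266). MRPS6, the counterpart of another bacterial small-subunit protein, was listed for a fitted change as high as that of MRPS2, at 411, 536, 440.1, 501 and 429.8 CPM with stretch medium, against 427, 391.8, 463, 199 and 444 CPM with static medium. Static 7 was far below the other 9 libraries, which overlapped. On the log2 scale the fitted difference was 0.27 ± 0.17 (edgeR, adjusted p = 0.461) and without static 7 it was 0.10. MRPS6 shares its locus and strand with the inositol transporter gene SLC5A3, which had a log2 fold change of 0.75, and whether reads were split between them was not tested. In all, 31 of the 71 members overlap another gene of the table, among those above MRPL11, MRPS2, MRPS7, MRPS18A, MRPS18C and MRPS25 on the opposite strand, and the use of strand in counting is not given in the sources used here.

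**Figure D4:**
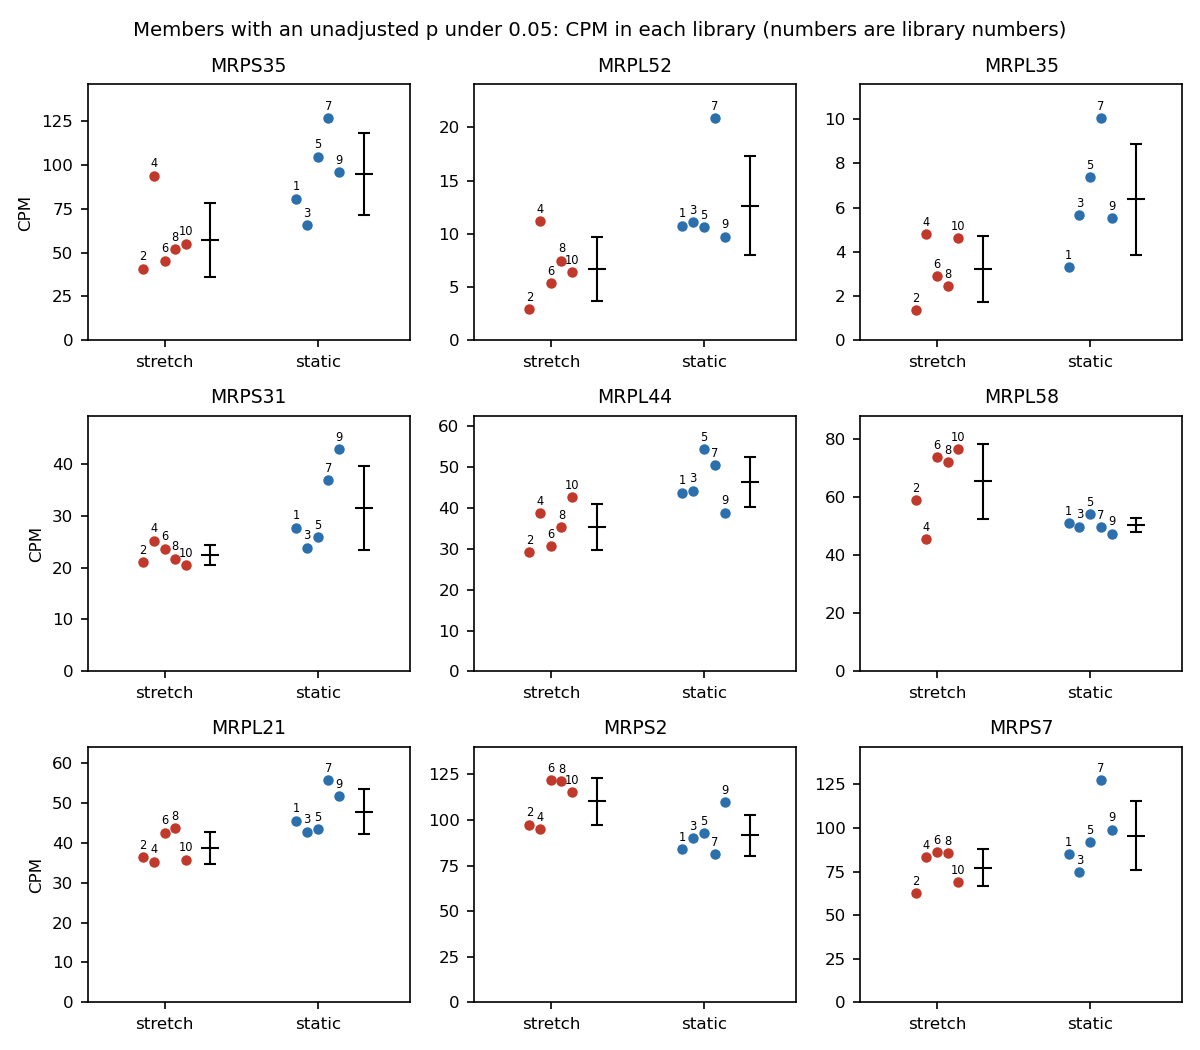
CPM in each library (points, with library numbers) of the 9 members with an unadjusted p under 0.05, stretch medium left of static medium, with the mean and SD of 5 libraries as bars; each vertical axis starts at 0. The groups overlap for every one of the 9, with stretch 4 lying with the static libraries or beyond them for 7.

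Single libraries stood out among the members. For 7 of the 9 members with an unadjusted p under 0.05, stretch 4 lay within the static range or beyond it, as it did for 52.5% of the 1804 such genes in the table. The other stretch libraries did so for 1 or 2 of the 9 members, and for 16.1% to 30.0% of the genes. Without stretch 4, groups did not overlap for 4 members, MRPL52, MRPS31 and MRPS35 lower and MRPL58 higher, which is 5.88% of those tested, against 8.03% of all genes. Static 7 held the highest level of 21 members (30.9%) and the lowest of 12 (17.6%), against 19.2% and 19.6% of all genes. Stretch 2 held the lowest level of 17 members (25%), against 13.1% of all genes, and it was also the library with the low VIM level given above. Without stretch 2 the median log2 fold change over the members was -0.079. In stretch 2, 23 of the 68 members (33.8%) lay above their own mean over the 10 libraries, against 51.4% of all genes. In static 9 it was 46 members (67.6%), against 52.6% of all genes. These were the lowest and highest shares of members, and the other libraries ran from 39.7% (stretch 4) to 64.7% (static 7). The part of these libraries in the group averages was not tested beyond leaving each out in turn.

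The median biological coefficient of variation, the spread between libraries beyond counting noise, was 15.1% for members and 16.7% for all genes. Members not listed above stayed within fitted changes of -0.44 (MRPL54, a large subunit protein added in mitochondria) and 0.17 (MRPL23, at the tunnel exit), and none had an unadjusted p under 0.05 in edgeR. The 3 members that did not pass the filter were MRPL34, with 1 to 22 counts per library, MRPL13, with 1 to 10, and MRPL30, with 0 to 15. MRPL30 had 0 counts in 5 libraries and its 15 counts stood in stretch 2.

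Other genes of mitochondrial translation were taken from lists, and 0 of them passed an adjusted p of 0.05 in edgeR, where 0% of the 10968 genes tested did. The 5 ribosomal proteins with other symbols (DAP3, PTCD3, CHCHD1, AURKAIP1 and GADD45GIP1) had a median log2 fold change of -0.12, with 5 of 5 below 0. Of all genes, 49.9% were below 0. CHCHD1, a small-subunit protein, had 2.72, 1.35, 2.48, 2.07 and 2.21 CPM with stretch medium, against 3.96, 3.42, 3.38, 3.39 and 2.92 CPM with static medium. Every stretch library lay below every static library, as for 1.98% of all genes, at low levels. The log2 fold change of CHCHD1 was -0.65 ± 0.24 (edgeR, adjusted p = 0.210). The 17 translation factors and their partners had a median of -0.11, with 12 of 17 below 0. At an unadjusted p under 0.05 stood 0 of them, against 16.4% of all genes. The elongation factor TUFM was at 60.3 ± 7.98 CPM with stretch and 55.3 ± 2.53 CPM with static medium. The 17 genes that charge mitochondrial tRNAs had a median of -0.028, and 0 had an unadjusted p under 0.05. Of these LARS2, for leucine, was higher without overlap, as 1.74% of all genes were. It was at 21.5 ± 2.42 CPM with stretch and 17.6 ± 2.13 CPM with static medium (edgeR, adjusted p = 0.321).

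Of 25 genes for assembly of the ribosome and modification of its RNA (median -0.019), 3 were lower (MALSU1, MTERF3 and RPUSD3) and 3 higher (MTG2, MTERF4 and NSUN4) at an unadjusted p under 0.05. MTERF4 and NSUN4 encode the partners of an rRNA methyltransferase complex. They had log2 fold changes of 0.30 ± 0.13 and 0.48 ± 0.21 (edgeR, adjusted p = 0.261 and 0.280), and every stretch library lay above every static library for MTERF4 but not for NSUN4. The shares of all genes were 8.37% lower and 8.08% higher, or 1.98% and 1.74% without overlap between the groups. MALSU1, which keeps the immature large subunit from joining the small one, had 65.4, 56.4, 73.6, 65.1 and 68.9 CPM with stretch medium, against 84.8, 87.6, 77.5, 79.5 and 84.1 CPM with static medium. The groups did not overlap, and the log2 fold change was -0.33 ± 0.10 (edgeR, adjusted p = 0.152). MTG2, a GTPase of large subunit maturation, had 10.2, 8.08, 17.6, 13.1 and 11.3 CPM with stretch medium, against 8.79, 9.20, 6.61, 6.66 and 9.42 CPM with static medium. Stretch 4 lay inside the static range and the other 4 stretch libraries lay above it, with a log2 fold change of 0.58 ± 0.21 (edgeR, adjusted p = 0.184). Of 18 regulators of mitochondrial transcription, DNA and biogenesis (median 0.10, 13 of 18 above 0), 3 were lower (SSBP1, TEFM and GABPB1) and 1 higher (TWNK) by the same count. GABPB1 is the partner of the ETS factor GABPA, and its log2 fold change was -0.42 ± 0.20 (edgeR, adjusted p = 0.297). GABPA, NRF1 and YY1, whose cores were searched above, were at 0.11 ± 0.18, 0.14 ± 0.18 and 0.15 ± 0.14 (edgeR, adjusted p = 0.809, 0.728 and 0.634). SSBP1, which coats single-stranded mitochondrial DNA, averaged 187 ± 41.7 CPM with stretch and 245 ± 40.5 CPM with static medium, and TWNK, the mitochondrial DNA helicase, 20.7 ± 3.04 CPM with stretch and 14.98 ± 3.99 CPM with static medium (SD, n = 5 each). Their adjusted p in edgeR were 0.212 and 0.233. TWNK overlaps MRPL43, a member, on the opposite strand. Of the genes on the mitochondrial genome, 9 were in the table, at no more than 1.79 CPM in any library. As CPM also reflect the targets of the assay, these values do not give the abundance of the RNAs in the cells. Of the 9 genes, 0 passed the filter, so no change was fitted for the RNAs that this ribosome reads.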

How the data were processed

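Ion AmpliSeq transcriptome libraries of human fibroblasts were deposited as 1 table of whole-number read counts per gene, not normalized; per the submitters' processing notes the authors used fastp 0.20.1 and Salmon 1.9 with hg38. How targets were summed to genes is not given in the sources used here. Identifiers were named and placed with GENCODE 29 (GRCh38). Counts were filtered (filterByExpr, minimum count 10, minimum total 15), scaled by the trimmed mean of M-values and fitted with edgeR 4.0.16 in R 4.3.3 (quasi-likelihood test, Benjamini-Hochberg adjustment over all 10968 genes tested), tested on simulated data. DESeq2 1.42.0, limma 3.58.1 (voom), other scalings and filters, a number covariate, each library left out and a block of neighbouring numbers (added after seeing the data) were alternatives. Centred log2 CPM used a prior count of 2. Without molecular identifiers in the counts, the floor covers counting error only.

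Named members had an unadjusted p under 0.05, groups without overlap, the 2 highest or 2 lowest fitted changes of a subunit, or a role set by list (stalk, MRPS18 paralogs, MRPS30, MRPS36, MRPL44, MRPL58); of other lists, up to 2 genes with the smallest p were named where that p was under 0.05, and TUFM and the other genes behind counts of 5 or fewer were named after their values were seen. GABPA, NRF1 and YY1 were named because their motifs were searched, also after their values were seen. Members and lists were chosen with earlier results of these data known.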

Additional observations from a re-analysis of the deposited data

Results flagged for a closer look

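In 3 of the 44 groups of 5 libraries looked at among the named members and subunit levels, 1 library lay far from the other 4 by Dixon's test at the 95% level, which by chance alone flags about 5% of groups.

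MRPS35 stood at 93.7 CPM in stretch 4, where the other stretch libraries held 40.7 to 55.1 CPM. MRPL52 stood at 20.9 CPM in static 7, where the other static libraries held 9.74 to 11.1 CPM. MRPS6 stood at 199 CPM in static 7, where the other static libraries held 391.8 to 463 CPM.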

How the results depend on the processing

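The number of genes called was 269 with DESeq2, 1 with limma-voom, 61 at an adjusted p of 0.1 and 0 to 39 with 1 library left out, highest without stretch 4. Members called numbered 2 with DESeq2 and 0 to 1 with 1 library left out. Members whose groups did not overlap numbered 0 to 4 with 1 library left out, highest without stretch 4 (5.88% of members, against 8.03% of all genes). Members with an unadjusted p under 0.05 numbered 7 to 11 in all, 6 to 10 lower and 1 to 3 higher with 1 library left out, and 1 was higher with the library number as a covariate. With 1 library left out, the share under 0.05 was 10.3% to 16.2% of members, against 12.1% to 18.8% of all genes. Members had the higher share without stretch 2 (16.2% against 12.9%), stretch 6 (13.2% against 12.9%) and stretch 8 (14.7% against 13.7%). Without any other library, and with all of them, members had the lower share. The difference in large minus small subunit level ran from -0.063 to -0.027. The log2 fold change of MRPL12 was -0.0051 under upper quartile scaling and ran from -0.032 to 0.047 with 1 library left out. No other named member changed sign under these alternatives. The causes were not tested. The groups share no library number. A replicate block of neighbouring numbers (1 with 2, and so on), which the labels do not pair, was added after seeing the data. With this block edgeR called 0 genes, and 8 members were lower and 2 higher at an unadjusted p under 0.05. Together these were 14.7% of the members tested, against 13.7% of all genes. Large subunit levels differed by -0.15 to -0.10 log2 within the 5 neighbours, stretch minus static. Deviations from the group means correlated at -0.16 to 0.041 over genes, and 0 of the 10 libraries correlated best with its neighbour. With 5 possible partners for each library, few best matches arise by chance, so this count cannot decide whether neighbours are paired. The 95% intervals, of median half-width 0.28 on the log2 scale, limit what could be resolved.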
